A study of Homo sapiens with 8 samples.

Results

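The nuclear genes of the mitochondrial respiratory chain and ATP synthase were examined in RNA-seq tables of BCPAP and CAL-62, a pair of human thyroid cancer cell lines. Members were chosen by symbol (NDUFA, NDUFB, NDUFC, NDUFS and NDUFV genes, NDUFAB1, COX4 to COX8, UQCR, SDHA to SDHD, ATP5, CYC1 and CYCS). The rule found 84 of the 12715 genes listed in either line's table, and 82 of these were listed for both lines. They comprised 36 genes of complex I, 4 of complex II, 9 of complex III, 12 of complex IV, 15 of ATP synthase, CYCS, and NDUFA4, which was named for complex I but belongs with complex IV. The other 6 matched by name only (ATP5S, ATP5SL, COX4NB, COX7A2L, ATP5EP2 and UQCRHL) and were kept as a separate group. COX6A2 was listed for CAL-62 alone and COX7B2 for BCPAP alone.

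The study treated each line with 100 nM THZ1, a covalent inhibitor of the transcription kinase CDK7, for 6 h. Controls received only the vehicle DMSO, and each of the 4 groups has 2 libraries. Both lines carry the label anaplastic thyroid carcinoma. BCPAP was grown in RPMI 1640 with 10% serum and CAL-62 in DMEM with 20% serum, and an effect of the line cannot be told apart from one of its medium. Whether replicates were separate cultures is not stated, and p-values cover only the library-to-library spread, possibly a technical one.

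Complexes I to IV pass electrons from NADH and succinate through ubiquinone and cytochrome c to oxygen and, except for complex II, pump protons across the inner mitochondrial membrane. ATP synthase uses the returning protons to make ATP. Complexes I, III and IV and ATP synthase are built from a few subunits encoded in mitochondrial DNA and many encoded in the nucleus, whereas complex II is entirely nuclear. NRF1, the ETS factor GABP and YY1 are well-known activators of the nuclear genes.

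The promoter sequences below belong to members that passed the test for THZ1 in CAL-62, to the complex I gene that stood lowest in that comparison, and to a divergent gene pair of unlike values. Each is the 150 bases before the RefSeq start of the gene, read 5′ to 3′ on the gene's strand (RefSeq, build GRCh38.p14). Capitals mark a match to the NRF1 motif, or to CCGGAAG or its reverse complement CTTCCGG, the ETS motif.
NDUFA12, chr12:95003698-95003847, minus strand: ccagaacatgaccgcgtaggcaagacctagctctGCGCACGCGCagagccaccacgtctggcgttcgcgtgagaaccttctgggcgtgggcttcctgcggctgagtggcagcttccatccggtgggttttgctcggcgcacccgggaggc
COX6A1, chr12:120437963-120438112, plus strand: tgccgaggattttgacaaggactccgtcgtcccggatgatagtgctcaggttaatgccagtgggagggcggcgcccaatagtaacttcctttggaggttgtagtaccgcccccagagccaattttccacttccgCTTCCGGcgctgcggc
COX5B, chr2:97645912-97646061, plus strand: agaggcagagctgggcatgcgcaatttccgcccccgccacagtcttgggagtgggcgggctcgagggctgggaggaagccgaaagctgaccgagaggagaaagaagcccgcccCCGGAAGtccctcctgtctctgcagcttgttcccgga
COX7A2, chr6:75250299-75250448, minus strand: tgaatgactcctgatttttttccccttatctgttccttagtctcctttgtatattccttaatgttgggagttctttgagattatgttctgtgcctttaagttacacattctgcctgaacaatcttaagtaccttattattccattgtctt
ATP5E (now ATP5F1E), chr20:59032336-59032485, minus strand: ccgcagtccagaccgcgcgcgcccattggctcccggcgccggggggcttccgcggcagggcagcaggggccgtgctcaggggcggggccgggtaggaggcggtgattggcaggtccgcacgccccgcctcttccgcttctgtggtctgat
NDUFV3, chr21:42893159-42893308, plus strand: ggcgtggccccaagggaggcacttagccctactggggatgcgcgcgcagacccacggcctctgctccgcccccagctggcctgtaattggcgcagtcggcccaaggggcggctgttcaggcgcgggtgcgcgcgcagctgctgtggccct
COX4I1 and, on the other strand, COX4NB, chr16:85799545-85799694, plus strand: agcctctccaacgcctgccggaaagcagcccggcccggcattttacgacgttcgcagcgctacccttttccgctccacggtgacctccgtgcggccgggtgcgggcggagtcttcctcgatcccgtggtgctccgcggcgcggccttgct

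NDUFA12 held 1 NRF1 match and COX6A1 and COX5B each held an ETS match, while the printed stretches of COX7A2, ATP5E and NDUFV3 held neither. Over 67 members with an entry, in windows of 300 bases (250 before the start and 50 after it, both strands), 14 held the NRF1 motif (20.9%), against 12.5% of the 9466 promoters of genes in either table and 6.28% of all 27305 promoters. The ETS motif was in 20 members (29.9%), against 20.3% and 10.7%. The YY1 motif AAGATGGCG was in 8 members (11.9%), against 4.28% and 1.85%. TATAAA was in 7 members (10.4%), against 5.07% of the promoters of genes in either table and 3264 of all 27305 promoters, which is a larger share than in the members. NRF1 matches were in 4 of 7 complex III promoters and in 0 of 11 complex IV promoters, where 5 held the ETS motif. A match is a description of the letters and not a measured binding site. NDUFS5 had no entry.

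Values are in an RPKM-type unit, reads per gene scaled by the authors to gene length and by a factor for each library, so that levels can be compared between genes. The factor did not follow the total of recovered reads, as the scalings below show. Reads in listed genes, recovered from the values, ranged from 16682509 to 19989730 per library, and a member had a median of 1320 reads in a library. The lowest DMSO mean in either table was 1.00, so any gene that THZ1 raised from less than this was outside the tables. Of the thyroid lineage markers, PAX8 was listed for both lines and NKX2-1 and FOXE1 for BCPAP only; TG, TSHR, SLC5A5 and DIO1 were listed for neither line, and no blood or endothelial marker was listed. The strand setting of the counting is not given in the sources used here, so reads of a member and of a gene on the opposite strand cannot be told apart.

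Under DMSO the members were among the more abundant transcripts of both lines. Their median percentile among listed genes was 89.2 in BCPAP and 90.3 in CAL-62, and 65 and 69 of them, respectively, lay above the 75th percentile. In CAL-62 the median of the group means was 48.6 for complex I, 55.97 for complex II, 87.2 for complex III, 143 for complex IV and 62.4 for ATP synthase.

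In CAL-62, THZ1-treated cells had higher values than DMSO-treated cells for nearly all nuclear respiratory genes. The change was positive in 81 of 83 members tested (51.8% of all genes), with a median of 0.86 in log2(value + 1), a 1.82-fold difference, against a median of 0.03 over all genes tested. Their interquartile range was 0.78 to 0.99, and 19 members had a change of at least 1, as did 1.82% of all genes. Both THZ1 libraries stood above both DMSO libraries in 78 members, and such a separation was seen in 30.1% of all genes. With limma on log2(value + 1) and Benjamini-Hochberg adjustment over all 11362 genes tested, 6 members rose (adjusted p under 0.05) and 0 fell. Over all genes 0.581% were called higher and 4.04% lower, together 4.62%. Another 34 members had an adjusted p from 0.05 to 0.08. Just inside the threshold was ATP5E with an adjusted p of 0.0492, and just outside were COX7A2L (0.051) and ATP5B (0.0515).

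The direction was relative to the authors' scaling, which placed the median of all genes near 0. Scaled to the cytosolic ribosomal protein genes, whose own median change in CAL-62 was 0.96, the member median was -0.087 with all genes at -0.78. Scaled to the mitochondrially encoded genes, it was -0.17 with all genes at -0.85. Scaled to the total of recovered reads, it was 0.45 with all genes at -0.33. The member median stood above that of all genes by 0.83 as deposited, and by 0.70, 0.68 and 0.77 under these scalings. All groups shared 1 estimate of the spread, and the count of 6 moved when single libraries of either line were left out. Without either BCPAP THZ1 library it was 29, with 7.16% or 7.32% of all genes called. Without CAL-62 THZ1 replicate 2 it was 1, with 4.08% called. It was 0 without CAL-62 THZ1 replicate 1 (2.27% of all genes called), with either BCPAP DMSO library left out (1.33% and 1.31%) and when CAL-62 DMSO replicate 1 was (9 of all genes called). Without CAL-62 DMSO replicate 2, and with the CAL-62 libraries alone, 0 of all genes were called, so these settings tell nothing about the members in particular. With limma-voom on recovered reads 1 member, ATP5B, was called and 0 of these 6, with 1.91% of all genes called.

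**Figure D1:**
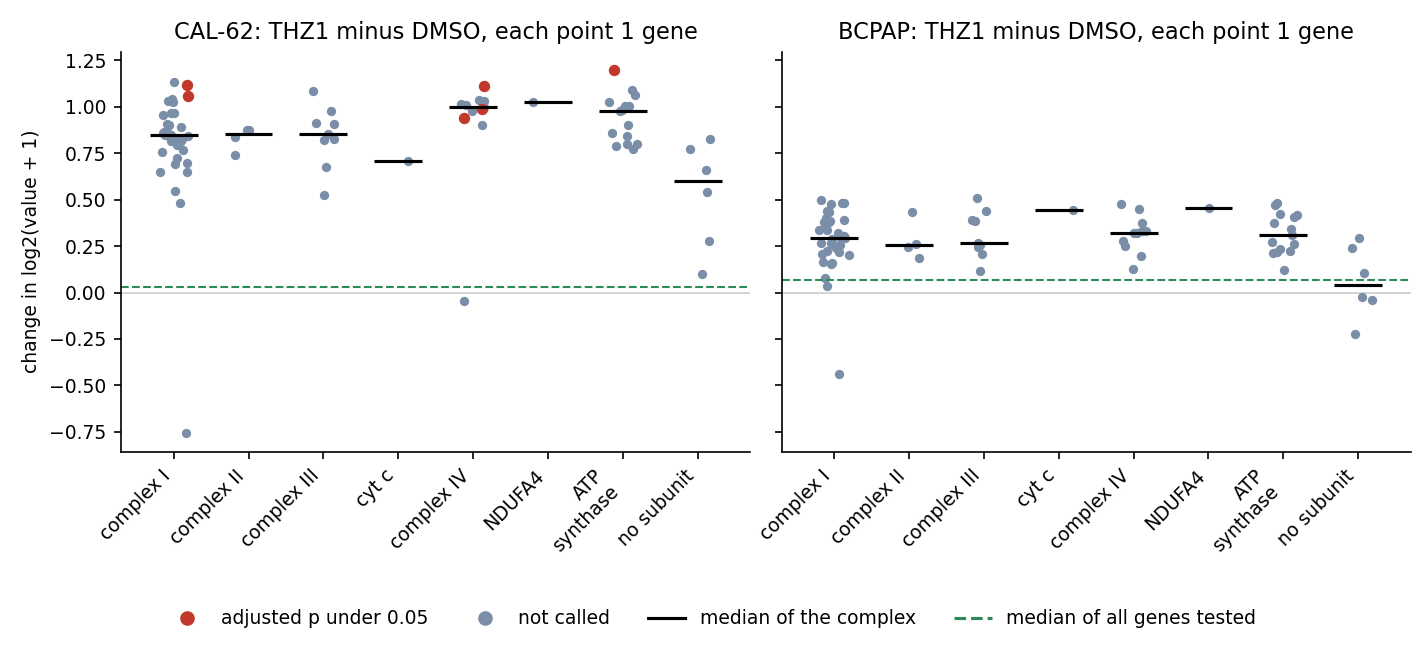
Change of each member between THZ1 and DMSO, in log2(value + 1), by complex, in CAL-62 (left) and BCPAP (right); each point is 1 gene, black lines are medians of the complex and the dashed line is the median of all genes tested. In CAL-62 the subunits lie between 0.48 and 1.199 apart from NDUFV3 at -0.76 and COX6A2 at -0.044, and the 6 red points passed limma at an adjusted p under 0.05; scaled to ribosomal protein or mitochondrially encoded genes, the CAL-62 member median was -0.087 or -0.17, and scaled to the latter the BCPAP one was -0.094.

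Complex I, the NADH dehydrogenase that takes up electrons from NADH, had a median change of 0.85 in CAL-62, and 35 of its 36 genes were positive, though its median was negative under the ribosomal protein and mitochondrial scalings (-0.098 and -0.19). NDUFA12 and NDUFS5 rose. Of all genes, 51.8% were positive, 0.581% were called higher and 30.1% had both treated libraries above both controls. NDUFA12, an accessory subunit, was at 46.03 and 42.9 under DMSO and 109 and 87.3 under THZ1 in CAL-62. Both treated libraries lay above both controls, and the change was 1.12 ± 0.20 (SE; limma, adjusted p = 0.0289). NDUFS5, an accessory subunit on the intermembrane-space side, was at 64.6 and 66.4 under DMSO and 140.1 and 135 under THZ1, with no overlap. Its change was 1.06 ± 0.20 (SE; limma, adjusted p = 0.0347).

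Other complex I genes had changes of similar size that did not pass the test. NDUFS6, a zinc-binding accessory subunit, was at 88.7 and 121 under DMSO and 204 and 255 under THZ1, a change of 1.13 (limma, adjusted p = 0.078). NDUFB9, the most abundant complex I transcript in CAL-62, was at 154 and 192 under DMSO and 337 and 364 under THZ1, a change of 1.02 (limma, adjusted p = 0.0591). Both genes were separated upwards, as were 30.1% of all genes, but the replicates of NDUFS6 lay further apart within each group. NDUFS4, an accessory subunit whose loss causes Leigh syndrome in patients, was at 23.9 and 35.7 under DMSO and 44.7 and 64.95 under THZ1. NDUFC2, the least abundant under DMSO, was at 6.96 and 6.24 under DMSO and 10.9 and 10.9 under THZ1. The catalytic core subunit NDUFS1 had the smallest positive change of the complex, 0.48 (limma, adjusted p = 0.134), and was picked out after its values were seen.

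NDUFV3, a small accessory subunit that sits with the NADH-binding flavoprotein part of complex I, was the exception. It was at 11.97 and 10.1 under DMSO and 5.51 and 6.70 under THZ1 in CAL-62, both treated libraries lying below both controls. Its change was -0.76 ± 0.22 (SE; limma, adjusted p = 0.078), which did not pass the threshold. In BCPAP it was at 8.28 and 7.84 under DMSO and 6.10 and 5.30 under THZ1, again without overlap, a change of -0.44 ± 0.22 (limma, adjusted p = 0.932). It was the only member whose groups were separated downwards in either line, a separation seen in 27.4% of all genes in CAL-62 and 16.4% in BCPAP. Its partners in that part of the complex, NDUFV1 and NDUFV2, had CAL-62 changes of 0.83 and 0.80, neither past the test.

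**Figure D2:**
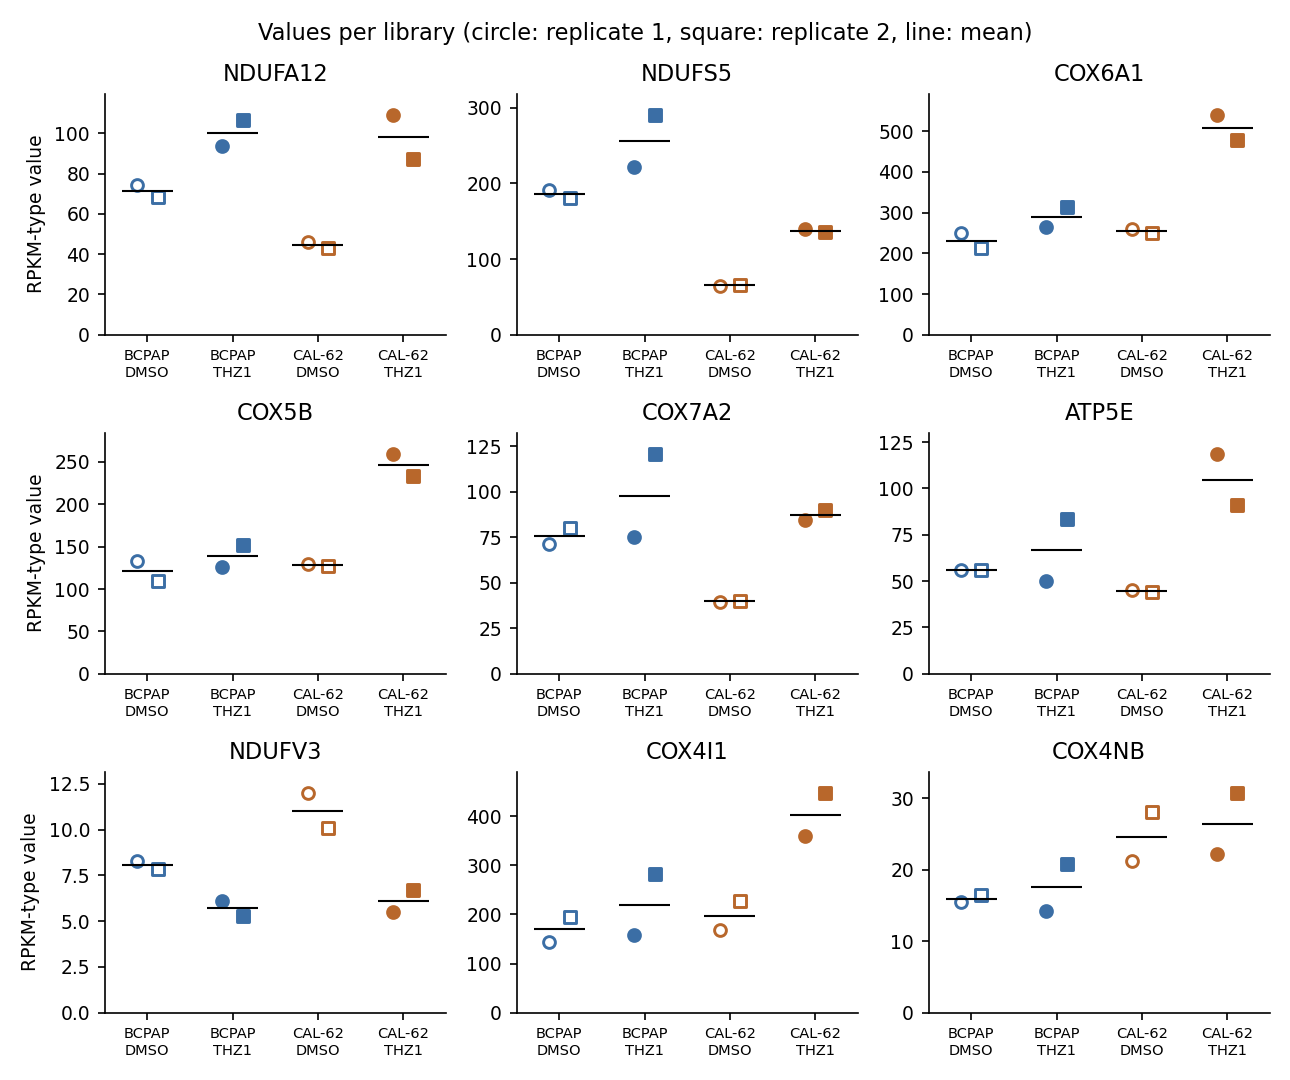
RPKM-type value in each library (circles replicate 1, squares replicate 2, open DMSO, filled THZ1, line the mean) for the 6 members that passed the test in CAL-62, for NDUFV3, and for the divergent neighbours COX4I1 and COX4NB. In CAL-62 the treated libraries of the first 6 lie above both controls and those of NDUFV3 below them, whereas the COX4NB values of both treatments overlap; scaled to mitochondrially encoded genes, COX6A1 and COX5B had changes of -0.073 and -0.12, and scaled to ribosomal protein genes COX5B had -0.031.

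Complex II, succinate dehydrogenase, also serves the citric acid cycle. In CAL-62 its 4 genes had a median change of 0.86, all were positive and none passed the test; the median was -0.11 and -0.20 under the ribosomal protein and mitochondrial scalings. SDHA, the flavoprotein, was at 57.6 and 58.8 under DMSO and 96.05 and 99.9 under THZ1. SDHB, the iron-sulfur subunit, was at 65.5 and 49.9 under DMSO and 121 and 91.7 under THZ1. Treated libraries were higher than controls for both genes, as for 30.1% of all genes, and the SDHB replicates were further apart. Of the membrane anchors, SDHC was at 22.3 and 14.3 under DMSO and 37.8 and 29.8 under THZ1 and SDHD at 57.4 and 51.05 under DMSO and 102 and 92.7 under THZ1, with no overlap for either. The changes were 0.74, 0.87, 0.87 and 0.84 in that order, with limma adjusted p from 0.0537 to 0.0796.

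Complex III passes electrons from ubiquinol to cytochrome c. All of its 9 genes were positive in CAL-62, with a median change of 0.85 and none past the test; under the ribosomal protein and mitochondrial scalings the median was -0.12 and -0.21. The largest change was that of UQCRQ, a small subunit, at 28.6 and 46.3 under DMSO and 69.4 and 88.3 under THZ1 (1.08; limma, adjusted p = 0.142). The smallest was that of UQCRFS1, the Rieske iron-sulfur protein, at 93.5 and 95.2 under DMSO and 135 and 137 under THZ1 (0.53; limma, adjusted p = 0.14). The UQCRFS1 replicates lay close together within each treatment, while those of UQCRQ lay further apart. CYC1, cytochrome c1, was at 177 and 229.7 under DMSO and 318 and 418 under THZ1, and UQCRB, a ubiquinone-binding subunit and the least abundant of the complex, at 28.4 and 21.1 under DMSO and 55.05 and 40.1 under THZ1. UQCR11 was at 35.5 and 44 under DMSO and 52.4 and 77.7 under THZ1. Cytochrome c itself, CYCS, was at 27.8 and 19.7 under DMSO and 43.2 and 34.9 under THZ1, a change of 0.71 (limma, adjusted p = 0.19). In each of these genes both treated libraries lay above both controls, as in 30.1% of all genes.

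Complex IV, cytochrome c oxidase, had the highest median change of the complexes in CAL-62, 1.00, with 10 of 11 genes positive and 3 called higher. Over all genes 51.8% were positive and 0.581% were called higher. Without CAL-62 DMSO replicate 1 the medians were 0.91 for complex IV, 0.993 for complex II and 0.985 for ATP synthase, and without CAL-62 THZ1 replicate 2 that of ATP synthase was 0.984 against 0.921 for complex IV, so complex IV was highest only with both of these libraries in. The complex IV median was 0.031 under the ribosomal protein scaling, with 8 of 11 genes positive, and -0.060 under the mitochondrial scaling. COX6A1, the widely expressed isoform of its subunit, was at 260.3 and 250.8 under DMSO and 538 and 479 under THZ1, and rose by 0.99 ± 0.21 (SE; limma, adjusted p = 0.0438). COX5B, a zinc-binding subunit, was at 129 and 127 under DMSO and 259 and 234 under THZ1, and rose by 0.94 ± 0.21 (SE; limma, adjusted p = 0.0469). COX7A2, the widely expressed isoform of subunit VIIa, was at 39.5 and 40.1 under DMSO and 84.5 and 89.9 under THZ1, and rose by 1.11 ± 0.25 (SE; limma, adjusted p = 0.0476). In each of the 3 genes the DMSO replicates were nearly equal and the THZ1 replicates both lay well above them.

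The muscle-type isoform COX6A2 was close to the table's lower limit, at 1.16 and 0.965 under DMSO and 1.48 and 0.608 under THZ1, and its groups overlapped. COX8A, the most abundant complex IV transcript in CAL-62, was at 234 and 378 under DMSO and 459 and 780 under THZ1, a change of 1.01 that did not pass the test (limma, adjusted p = 0.233). The replicates of COX8A differed widely within each treatment, unlike those of COX6A1. COX6B1 was at 154 and 132 under DMSO and 292 and 285 under THZ1, COX5A at 104 and 124 under DMSO and 199 and 229.5 under THZ1 and COX7B at 189.7 and 120.1 under DMSO and 387 and 237 under THZ1. COX8A, COX6B1, COX5A and COX7B were each separated upwards, as were 30.1% of all genes, and none passed the test. NDUFA4 was at 34.3 and 40.2 under DMSO and 72.9 and 80.7 under THZ1, a change of 1.02 (limma, adjusted p = 0.0585).

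ATP synthase had a median change of 0.98 in CAL-62, with all 15 genes positive. The median was 0.024 under the ribosomal protein scaling, with 8 of 15 genes positive, and -0.064 under the mitochondrial scaling. ATP5E, the epsilon subunit of the central stalk, was at 45.3 and 44.1 under DMSO and 118 and 91.1 under THZ1, and rose by 1.199 ± 0.27 (SE; limma, adjusted p = 0.0492), the largest change of any member. The treated replicates were further apart than the controls but both far above them. ATP5B, the catalytic beta subunit and the most abundant of the complex, was at 348 and 336 under DMSO and 734 and 641 under THZ1, a change of 1.00 just outside the threshold. ATP5C1, the gamma subunit that turns inside the catalytic head, was at 123 and 98.8 under DMSO and 222 and 161 under THZ1 and had the smallest change of the complex, 0.77 (limma, adjusted p = 0.079). ATP5D, the delta subunit, was the only gene of the complex whose groups overlapped, at 50.99 and 94.9 under DMSO and 82.3 and 177 under THZ1. Of all genes, 51.8% were positive, 0.581% were called higher and 30.1% were separated upwards.

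ATP5G1, ATP5G2 and ATP5G3 are separate genes for the same mature c subunit, the ring that protons turn. ATP5G1 was at 71.3 and 53.5 under DMSO and 144 and 122 under THZ1, ATP5G2 at 73.9 and 57.1 under DMSO and 129 and 100.4 under THZ1 and ATP5G3 at 21.04 and 28.2 under DMSO and 36.4 and 55.5 under THZ1. ATP5G3 was lowest under DMSO and still lowest under THZ1, and all 3 were separated upwards by treatment, as were 30.1% of all genes. Their changes were 1.09, 0.80 and 0.86, none past the test. The ratio of ATP5G1 to ATP5G3, which no library scaling affects, was 3.39 and 1.90 under DMSO and 3.95 and 2.20 under THZ1. The treatments thus overlapped in this ratio.

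The 6 genes that matched by name only had a lower median change in CAL-62, 0.60, than the 77 other members tested, 0.87. COX7A2L, which helps to join respiratory complexes into supercomplexes, was at 60.8 and 57.3 under DMSO and 98.96 and 104 under THZ1. ATP5SL, a complex I assembly protein despite its name, was at 22.02 and 24.6 under DMSO and 25.1 and 32.1 under THZ1, a change of 0.28. ATP5EP2, a near-copy of ATP5E, was at 0.881 and 3.69 under DMSO and 2.76 and 6.39 under THZ1, with overlapping groups. Reads of ATP5E and ATP5EP2, and of UQCRH and UQCRHL, could be assigned to the wrong copy, so their values are uncertain, although UQCRH was at least as far above UQCRHL as 12.2 to 1 in each CAL-62 and BCPAP library.

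COX4NB, now named EMC8, encodes a subunit of the endoplasmic reticulum membrane protein complex, and lies back to back with COX4I1, which encodes a subunit of complex IV. Their RefSeq starts are 151 bases apart on chromosome 16, with the whole printed stretch between them. COX4I1 was at 168 and 227 under DMSO and 359.7 and 446 under THZ1, a change of 1.03 ± 0.33 (limma, adjusted p = 0.0896). COX4NB was at 21.2 and 28 under DMSO and 22.2 and 30.7 under THZ1, a change of 0.097 with a 95% interval of -0.52 to 0.72. The treated COX4I1 libraries lay above both controls, whereas the COX4NB groups overlapped. Within a library, and so free of scaling, the ratio of COX4I1 to COX4NB was 7.90 and 8.11 under DMSO and 16.2 and 14.6 under THZ1 in CAL-62. In BCPAP it was 9.37 and 11.8 under DMSO and 11.1 and 13.5 under THZ1, where the treatments overlapped.

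In BCPAP the same genes had much smaller positive changes and none passed the test. The change was positive in 79 of 83 members (58.6% of all genes), with a median of 0.29 against 0.07 over all genes tested, and 0 members were called among 0 of 11743 genes (0%; limma with Benjamini-Hochberg adjustment). At an unadjusted limma p under 0.05 there were 2 members and 471 genes, and the lowest adjusted p of a member was 0.932; limma-voom on recovered reads also called 0 members. Both THZ1 libraries were above both DMSO libraries in 28 members, against 21.9% of all genes, and both were below in 1, against 16.4%. The median was -0.094 when scaled to the mitochondrially encoded genes.

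The BCPAP median rested on 1 library. Against the mean of the DMSO libraries, THZ1 replicate 1 had a median of 0.0080, with 43 members above and 40 below, whereas replicate 2 had a median of 0.62, with 82 above. In CAL-62 the corresponding medians were 0.86 and 0.91, with 81 members above in each library. Without BCPAP THZ1 replicate 2 the BCPAP median of complex III was -0.046 and that of complex IV -0.015.

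**Figure D3:**
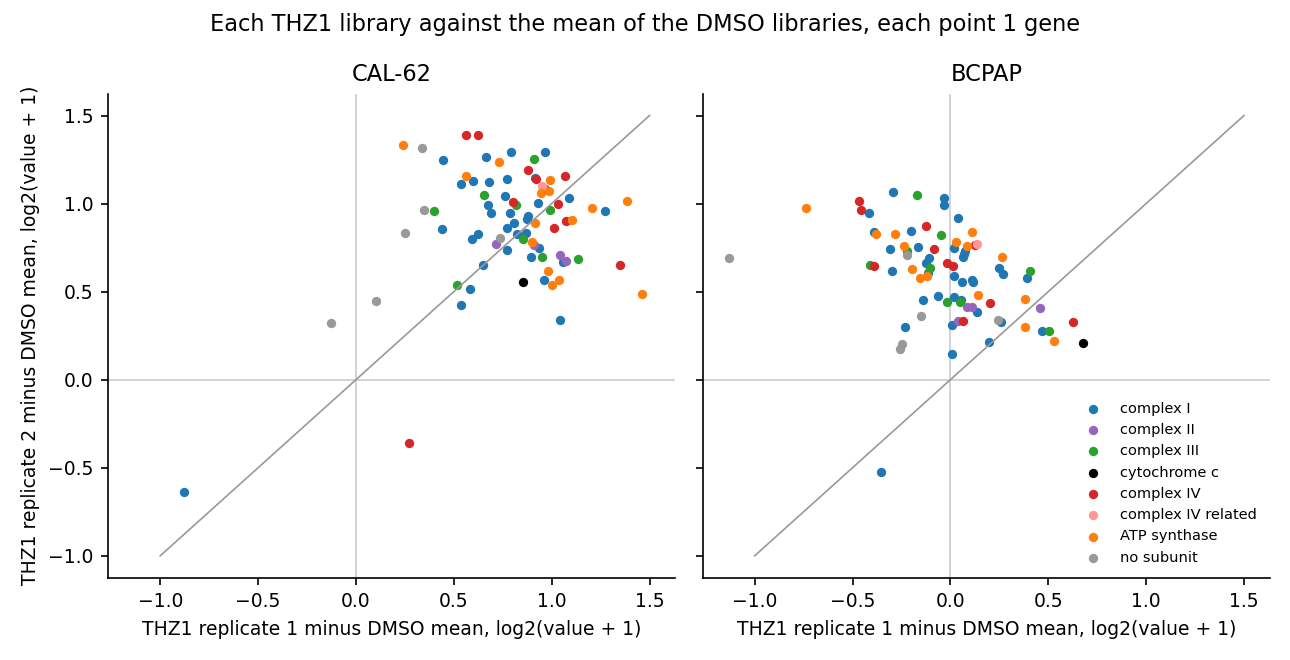
Change of each member in THZ1 replicate 1 (horizontal) and THZ1 replicate 2 (vertical) against the mean of the DMSO libraries, in log2(value + 1), as deposited, in CAL-62 (left) and BCPAP (right), coloured by complex. The member medians of replicates 1 and 2 are 0.86 and 0.91 in CAL-62 and 0.0080 and 0.62 in BCPAP; scaled to mitochondrially encoded genes the medians of the lines were -0.17 and -0.094, and scaled to ribosomal protein genes the CAL-62 median was -0.087.

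Single genes in BCPAP varied in whether both treated libraries lay above the controls. UQCRC2, a core protein of complex III, had the largest BCPAP change, 0.51, at 34.3 and 38.4 under DMSO and 48.4 and 56.1 under THZ1; here both treated libraries were above both controls (limma, unadjusted p = 0.041, adjusted p = 0.932). NDUFA12 was at 74.2 and 68.3 under DMSO and 93.5 and 107 under THZ1, also without overlap, a change of 0.48 (95% interval 0.023 to 0.94; limma, adjusted p = 0.932). COX7A2 was at 71.6 and 80.4 under DMSO and 75.1 and 121 under THZ1 and ATP5E at 55.7 and 55.98 under DMSO and 50.1 and 83.7 under THZ1. For the last pair the first treated replicate lay among the controls or below them and the second lay above. COX5B was at 133 and 109 under DMSO and 126 and 152 under THZ1 and COX6A1 at 249.4 and 213 under DMSO and 266 and 313 under THZ1, with NDUFS5 at 191 and 181 under DMSO and 221 and 289.6 under THZ1. COX7B2, a paralogue of COX7B listed in this line only, was at 5.27 and 7.54 under DMSO and 4.59 and 10.4 under THZ1, and COX7B itself at 113 and 74.7 under DMSO and 142 and 116 under THZ1. SDHB, at 97.8 and 69.6 under DMSO and 114 and 109.6 under THZ1, had treated libraries above both controls.

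The change in CAL-62 was larger than that in BCPAP in 80 of the 82 members in both tables (49.2% of all genes), by a median of 0.57 against -0.010 over all genes, but the order of the line medians turned with ribosomal protein genes as reference (-0.087 in CAL-62 and 0.053 in BCPAP) and with mitochondrially encoded genes (-0.17 and -0.094). The difference of the responses was called for 0 members and for 0 of 10653 genes (0%; limma with Benjamini-Hochberg adjustment). At an unadjusted limma p under 0.05 there were 3 members and 562 genes. These members were ATP5E, with a difference of 0.99 (95% interval 0.11 to 1.87), COX5B, with 0.74 (0.064 to 1.41), and NDUFB5, with 0.69 (0.036 to 1.35), each at an adjusted p of 0.844. For NDUFA12 the difference was 0.63 (-0.019 to 1.28), an interval that includes 0. The calls in CAL-62 and their lack in BCPAP are therefore not shown to differ gene by gene. Among the members, the changes in both lines had a Pearson r of 0.69 and a Spearman rho of 0.54, a description over 82 genes that share libraries; over all 10653 genes r was 0.66.

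Untreated, the lines differed in single members of complexes I, III and IV, in both directions. The lines have separate gene lists and may have been normalized separately, so the values were first rescaled by 1 median-of-ratios factor per library over the genes in both tables. The median difference of 82 members, CAL-62 minus BCPAP, was 0.15 (all genes 0.016), and 49 were positive (51% of all genes). With limma, 9 members were higher and 3 lower in CAL-62 at an adjusted p under 0.05, against 14.4% of all genes called (6.52% higher and 7.85% lower), so the share of members called was close to the background. The count was 1 without BCPAP or CAL-62 DMSO replicate 1 (2.83% and 3.68% of all genes called) and 2 without either replicate 2 (2.53% and 2.54%). It was 0 with the mitochondrially encoded genes as reference (1.48%) and 20 with the ribosomal protein genes (13.3%).

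Complex III held 5 of the 12 calls among its 9 genes. UQCRC2 was at 33.99 and 38.9 in BCPAP and 107 and 89.1 in CAL-62 in rescaled values, a difference of 1.401 ± 0.20 (SE; limma, adjusted p = 0.00597). UQCR10, a small subunit, was at 25.2 and 24.2 in BCPAP and 57.1 and 53.95 in CAL-62, a difference of 1.14 (limma, adjusted p = 0.0136). UQCRFS1, at 47.6 and 57.5 in BCPAP and 93 and 97.2 in CAL-62, and UQCRB, at 14.5 and 11.1 in BCPAP and 28.2 and 21.6 in CAL-62, were also higher in CAL-62. UQCRH, the acidic hinge protein, went the other way, at 249.7 and 291 in BCPAP and 108 and 109.8 in CAL-62, a difference of -1.30 ± 0.27 (SE; limma, adjusted p = 0.0202). UQCRH and UQCRC2 had the lowest and the highest difference of the complex, so a gap between the untreated lines in their ratio follows from that choice. Within a library the ratio of UQCRH to UQCRC2, which scaling does not touch, was 7.35 and 7.49 in untreated BCPAP and 1.01 and 1.23 in untreated CAL-62. Under THZ1 it was 5.18 and 7.46 in BCPAP and 1.15 and 1.34 in CAL-62, so the lines stayed apart in all libraries.

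Complex I was likewise divided. NDUFA6, an accessory subunit of the LYR-motif family, was at 8.47 and 8.91 in BCPAP and 22.1 and 25.4 in CAL-62, a difference of 1.35 ± 0.23 (SE; limma, adjusted p = 0.0113). NDUFA8 was at 25.4 and 27.7 in BCPAP and 56.3 and 67.7 in CAL-62, and NDUFA9, whose difference was 0.81, was also called higher in CAL-62. NDUFS5 was the member lowest in CAL-62 relative to BCPAP, at 189.5 and 184 in BCPAP and 64.3 and 67.7 in CAL-62, a difference of -1.49 ± 0.20 (SE; limma, adjusted p = 0.00498). NDUFB1, a small membrane-arm subunit, was at 25.98 and 26.6 in BCPAP and 9.11 and 9.69 in CAL-62, a difference of -1.39 (limma, adjusted p = 0.0244). The ratio of NDUFS5 to NDUFA6 within a library was 22.4 and 20.6 in untreated BCPAP and 2.91 and 2.66 in untreated CAL-62. These genes had the lowest and the highest difference of complex I, so a gap in their ratio follows from that choice. COX6C of complex IV was at 23.5 and 28.2 in BCPAP and 49.7 and 60.4 in CAL-62, and NDUFA4 at 16.3 and 19.9 in BCPAP and 34.2 and 41 in CAL-62, both higher in CAL-62 (limma, adjusted p = 0.0366 and 0.0402). No gene of complex II or ATP synthase was called, and ATP5B was at 263 and 288 in BCPAP and 346 and 343 in CAL-62.

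**Figure D4:**
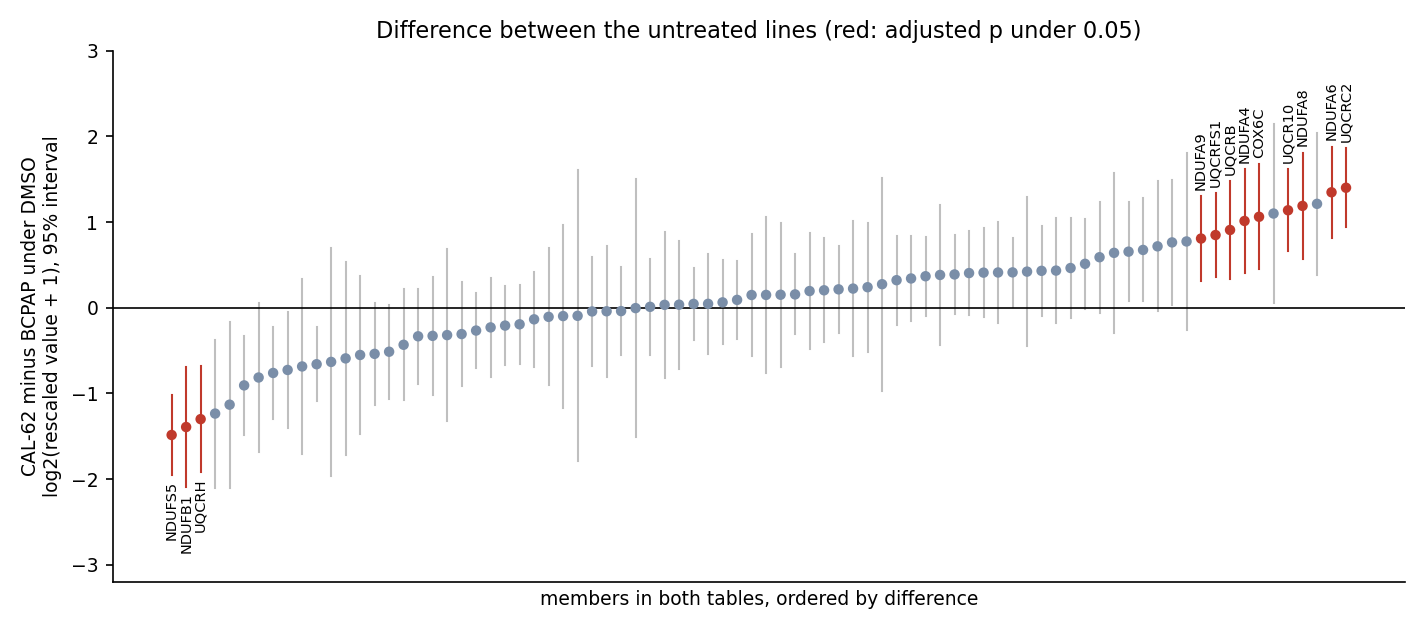
Difference between the untreated lines, CAL-62 minus BCPAP in log2(rescaled value + 1), for the 82 members in both tables in rising order; bars are 95% intervals and the 12 red genes passed limma at an adjusted p under 0.05. NDUFS5, NDUFB1 and UQCRH stand at the low end and UQCRC2 and NDUFA6 at the high end, with most members near 0; 0 members were called with the mitochondrially encoded genes as reference.

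The share of reads is relative to the library's total of reads in listed genes, which is itself 1 of the scalings given above. All members together took 0.693% and 0.773% of the reads in listed genes under DMSO and 0.930% and 1.09% under THZ1 in CAL-62. In BCPAP they took 0.563% and 0.648% under DMSO and 0.563% and 0.799% under THZ1. The treated CAL-62 libraries were above both controls and the BCPAP treatments overlapped. Wilson 95% intervals were within 0.0046 percentage points of each share and cover counting error only.

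The 13 mitochondrially encoded subunits, the products of the other genome that join the nuclear ones in complexes I, III and IV and ATP synthase, took a larger share. It was 6.26% and 3.74% under DMSO and 10.3% and 5.45% under THZ1 in CAL-62, and 4.74% and 2.69% under DMSO and 5.07% and 3.38% under THZ1 in BCPAP. The treatments overlapped in both lines, and replicate 1 was higher than replicate 2 in each group. All 13 had positive changes in CAL-62 (median 1.07) and none passed the limma test. The number of nuclear member reads per mitochondrially encoded read was 0.111 and 0.207 under DMSO and 0.0901 and 0.200 under THZ1 in CAL-62, so the treatments overlapped. In BCPAP it was 0.119 and 0.241 under DMSO and 0.111 and 0.237 under THZ1.

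**Figure D5:**
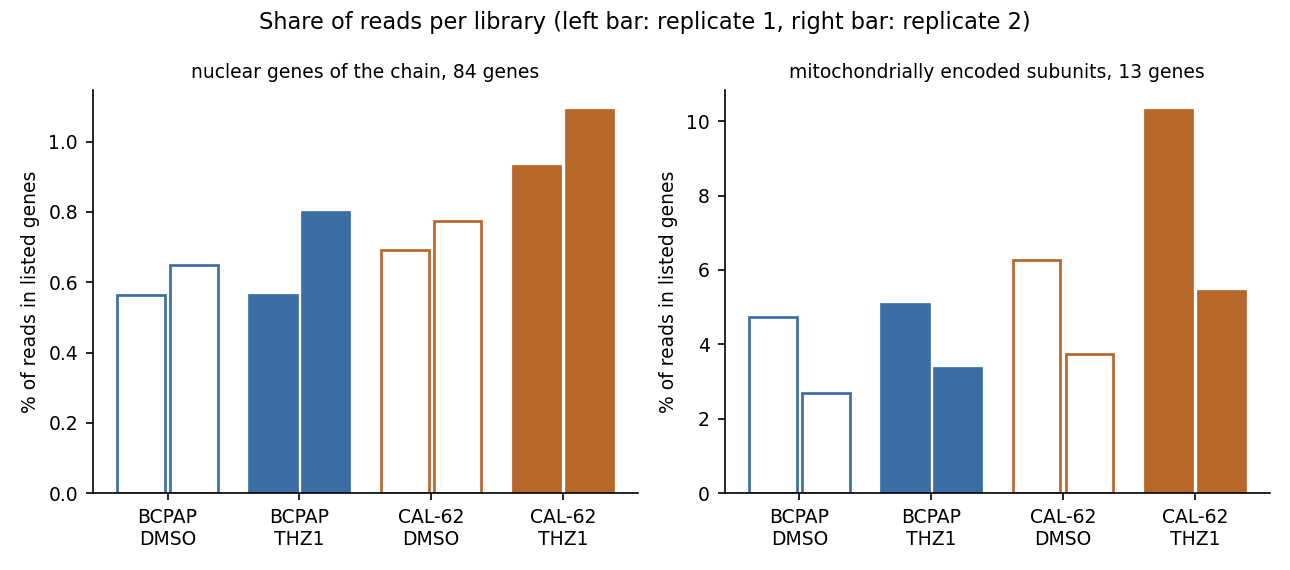
Percent of the reads in listed genes that fell in the 84 nuclear members (left) and in the 13 mitochondrially encoded subunits (right), 1 bar per library, open for DMSO and filled for THZ1. The nuclear share is highest in the CAL-62 THZ1 libraries, 0.930% and 1.09%, whereas the mitochondrial shares of the treatments overlap in both lines.

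Genes that serve the chain without being subunits had more mixed values in CAL-62. Of 41 assembly factors for the 5 complexes, 26 had positive changes, with a median of 0.32, 1 rose and 1 fell, a share near the 4.62% of all genes called (0.581% higher and 4.04% lower). COX17, the copper chaperone of complex IV, was at 43.9 and 35.7 under DMSO and 85.8 and 77.2 under THZ1, and rose by 1.02 ± 0.21 (SE; limma, adjusted p = 0.0431). SDHAF1, which helps to insert the iron-sulfur clusters of complex II, was at 5.78 and 13.4 under DMSO and 1.15 and 1.99 under THZ1, and fell by 1.96 ± 0.42 on the log2 scale (SE; limma, adjusted p = 0.0446). The SDHAF1 groups were separated downwards (27.4% of all genes) while all 4 complex II subunits were separated upwards (30.1% of all genes).

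Of 10 genes for the transcription and replication of mitochondrial DNA, 5 had positive changes, the median was 0.0, 1 rose and 1 fell (4.62% of all genes called). SSBP1, the mitochondrial single-strand binding protein, was at 59.6 and 60.8 under DMSO and 118 and 103 under THZ1, and rose by 0.86 ± 0.19 (SE; limma, adjusted p = 0.0446). C10orf2, which encodes the helicase Twinkle, was at 15.4 and 18.5 under DMSO and 5.67 and 4.76 under THZ1, and fell by 1.53 ± 0.29 on the log2 scale (SE; limma, adjusted p = 0.0331). Neither gene's groups overlapped, and of all genes 30.1% were separated upwards and 27.4% downwards. Of 10 regulators of nuclear respiratory genes, 2 had positive changes (median -0.47) and none passed the test. SP1 was at 18.1 and 14.1 under DMSO and 7.94 and 3.70 under THZ1, a change of -1.39 (limma, adjusted p = 0.0704), and GABPB1, a subunit of the ETS factor GABP, at 11.4 and 8.44 under DMSO and 5.02 and 3.85 under THZ1, a change of -1.004 (limma, adjusted p = 0.131). GABPA, another GABP subunit, was at 7.007 and 4.647 under DMSO and 8.815 and 5.398 under THZ1, with overlapping groups. Its change was 0.24 (limma, adjusted p = 0.679), and the other positive regulator was YY1 with 0.54. PPRC1, CREB1 and NRF1 had changes of -1.36, -1.35 and -0.61, none past the test.

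Another scaling shifts all genes of a line by nearly the same amount. The positive counts of these lists were made under the deposited scaling alone and can change with it. The 18 citric acid cycle genes, which supply the chain with NADH and succinate, were all positive in CAL-62, with a median of 0.68, and none passed the test. The 8 genes of ADP/ATP and anion exchange were all positive too, with a median of 0.73. Among the cytosolic ribosomal protein genes, which belong to another process, 77 of 78 were positive, with a median of 0.96, and 4 rose. Over all genes 51.8% were positive and 0.581% were called higher. The members' median of 0.86 was thus not the highest of the lists examined. In BCPAP none of these lists had a call, and the medians were 0.08 for the assembly factors, 0.29 for the citric acid cycle and 0.33 for the ribosomal protein genes.

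Members are short transcripts, with a median recovered gene length of 945 bases against 2919 for all genes. The 6 members called in CAL-62 were 439 to 754 bases long. Over the 83 members tested, the CAL-62 change and log2 length had a Pearson r of -0.33 and a Spearman rho of -0.46, against -0.097 and -0.20 over all genes; these are descriptions across genes that share libraries. In BCPAP r was -0.044. Whether length has a part in the CAL-62 values was not tested.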

How the data were processed

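RNA was selected with oligo(dT) per the labels' protocols, and the authors' deposited files hold 1 RPKM-type value per gene and library. This form (reads per gene over gene length, times a factor for each library) was inferred from the values. Scaling to the total of recovered reads moved the CAL-62 member median from 0.861 to 0.445, so the factor was not that total. Bowtie2, DESeq2 and hg19 are named per the submitters' processing notes, with roles, versions and annotation each not given in the sources used here. For 12715 of 12715 genes a whole length was found that turned all values into whole reads within 0.02 reads, which gave read shares and depth. A change in total mRNA per cell would not show in such values.

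The test was limma 3.58.1 (R 4.3.3), with its trend option, on log2(value + 1), which understates the change of low genes, for genes with a mean of at least 1, on all 8 libraries with a mean for each of the 4 groups. P-values were two-sided with Benjamini-Hochberg adjustment over all genes, and 0.05 was the threshold. All members at this filter entered except COX6A2 in BCPAP and COX7B2 in CAL-62. Alternatives were other pseudocounts, filters, scalings and fits, a replicate block, and leaving out each library; total-read scaling and leaving out the 6 members that are no subunits were chosen after seeing the data.

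The members and lists were chosen with earlier results of these data known. Values were printed for members called (up to 10 a comparison), the highest, lowest, largest-change and smallest-change members of each complex, isoform families, CYCS and CYC1. Promoters were matched by symbol or older symbol. Replicate libraries differed far beyond counting noise (chi-square per degree of freedom 66.6 to 120.0) and each was counted.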

Additional observations from a re-analysis of the deposited data

How the results depend on the processing

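The 6 calls and the median of 0.86 in CAL-62 changed as follows, and the cause was not tested. Calls numbered 2 with a mean of at least 5, 2 with upper-quartile scaling, 2 with total reads, 1 with ribosomal protein genes as reference, 0 with mitochondrially encoded genes, 1 with limma-voom on recovered reads, 0 from the line's 4 libraries alone, and 0 to 29 leaving out 1 library. The 1 call with ribosomal protein genes as reference was lower under THZ1, and 0 of the 6 stayed called. Of all genes 29.1% were called there, 4 higher and 3323 lower. With total reads 1 member was higher and 1 lower, with 13.2% of all genes called. The share of all genes called was 2.43% with a mean of at least 5, 6.3% with upper-quartile scaling and 4.13% with mitochondrially encoded genes. The CAL-62 median was 0.873 without the 6 members that are no subunits, 0.883 with a pseudocount of 0.1 and 0.70 with upper-quartile scaling. It was 0.888 with limma-voom, 0.445 with total reads and 0.856 to 0.921 leaving out 1 library. With ribosomal protein genes as reference it was -0.087, with complexes I, II and III at -0.098, -0.106 and -0.119 and COX5B at -0.031. With mitochondrially encoded genes it was -0.174, with complexes I to IV at -0.187, -0.195, -0.209 and -0.060, ATP synthase at -0.064, COX6A1 at -0.073 and COX5B at -0.121. The BCPAP median was -0.094 with that reference (complexes I to IV -0.092, -0.140, -0.132 and -0.071, ATP synthase -0.086) and 0.008 to 0.62 leaving out 1 library. The BCPAP median of complex III was -0.046 to 0.636 and that of complex IV -0.015 to 0.661 leaving out 1 library, lowest without THZ1 replicate 2. Calls between the lines, 12, numbered 20 with ribosomal protein genes, 0 with mitochondrially encoded genes and 1 to 14 leaving out 1 library. Calls in BCPAP and for the difference of responses were 0 under every alternative run.

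Replicates carry the numbers 1 and 2 in each group, and the labels do not say what the number marks. With a replicate block within each line, 79 members were called in CAL-62 (78 higher, and NDUFV3 lower), with 40.2% of all genes called (2503 higher and 2060 lower). With 1 replicate block over both lines, 34 were called between the lines, with 37% of all genes called. In the members, the difference of replicate 2 from replicate 1 under DMSO and under THZ1 had an r of 0.891 in BCPAP and 0.925 in CAL-62, against 0.779 and 0.464 over all genes. Between groups of different lines r was 0.795 to 0.833 in the members and 0.433 to 0.523 over all genes. The mitochondrially encoded share was higher under THZ1 within each number in both lines, for example 10.3% against 6.26% and 5.45% against 3.74% in CAL-62. Nuclear member reads per mitochondrially encoded read were fewer under THZ1 within each number in both lines. In CAL-62 they went from 0.111 to 0.0901 and from 0.207 to 0.200. The CAL-62 ratio of ATP5G1 to ATP5G3 was higher under THZ1 within each number, from 3.39 to 3.95 and from 1.90 to 2.20. In BCPAP that ratio went from 4.16 to 4.19 and from 3.53 to 3.36. Replicate 2 was above replicate 1 in all 4 groups in 45 of 82 members. Same-numbered samples thus deviated together, but with 2 pairs a line and no label for what they share, the fit without the block was kept as the one reported. Depth did not limit most members, but the lowest member had 3 reads in a library.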
